A study of Mus musculus with 2 samples.

Results

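The genes described here are 10 genes of the major histocompatibility complex (MHC) and of antigen presentation, taken from 21853 protein-coding mouse genes. The class I set has 7 members: B2m, H2-K1, H2-D1, Tap1, Tap2, Tapbp and Nlrc5. The class II set has 3: Ciita, H2-Aa and H2-Ab1. They were chosen by name, and every accessible region with its summit in a gene body or within 10 kb of it was taken. Accessibility was measured by ATAC-seq, in which a transposase cuts and tags DNA that is not tightly wrapped in nucleosomes. The data were 2 libraries of primary T cells from C57BL/6NJ mice, labelled biological replicates 1 and 2 and forming 1 group with no treatment or control to set them against. Both share 1 donor record, so separate animals cannot be assumed, and sex, age and stage are not given. The labels link to a protocol for differentiating CD4+ T cells, and the peak names carry the unexplained words Th0, 72hrs and ASTARR.insert, so no T-cell subset is assigned. Whether the fragments came straight from cells or from a library of inserts built from them is not known.

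Class I molecules, a heavy chain paired with beta-2 microglobulin, stand on nearly all nucleated cells and show peptides from inside the cell to CD8 T cells. Their peptides are cut by proteasomes, pumped into the endoplasmic reticulum by the TAP transporter and loaded there with the help of tapasin. Class II molecules, an alpha and a beta chain, are made mainly by B cells, dendritic cells and macrophages and show peptides to CD4 T cells. Mouse T cells are known to carry class I and to make little or no class II themselves. Transcription of both classes uses promoters with a shared S-X-Y architecture, where RFX, CREB and NF-Y proteins bind, and the coactivators NLRC5 for class I and CIITA for class II dock onto them.

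Replicate 1 had 78016 peaks on the standard chromosomes and replicate 2 had 74653, and 66847 merged regions were found in both. The members' windows cover 388.1 kb and held 51 peaks in replicate 1 and 46 in replicate 2. Merged, these were 53 regions, of which 44 were in both libraries, 7 in replicate 1 alone and 2 in replicate 2 alone. Read depth is unknown, and with 1 group of 2 libraries no test was possible, so all values are descriptions. Signal is the peak caller's own ratio for a peak, read as fold over local background from its values. The −log10 q is the caller's significance of that peak, which also grows with a library's depth. A promoter region is one whose summit lies within 1000 bp of a protein-coding transcript start. It is the gene's own if the start is its own, and a distal region is near no such start. Where 2 signals or −log10 q values are given for a region, the first is from replicate 1 and the second from replicate 2. All coordinates are on mm10 (GRCm38).

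Every member had a promoter region of its own in both libraries, 7 of 7 in class I and 3 of 3 in class II. The background is high: 62.9% of all protein-coding genes had one. Signal of the strongest such region had a median of 10.7 over the class I members, with a range of 5.824 to 13.6. In class II the median was 8.597 and the range 3.754 to 13.5. The ranges overlap, and both medians lie below the median of 11.21 over the 13737 genes with a promoter region in both libraries. Open promoters were thus seen at the class II chain genes as well as at class I genes, and Ciita had the weakest own promoter of the 10.

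**Figure D1:**
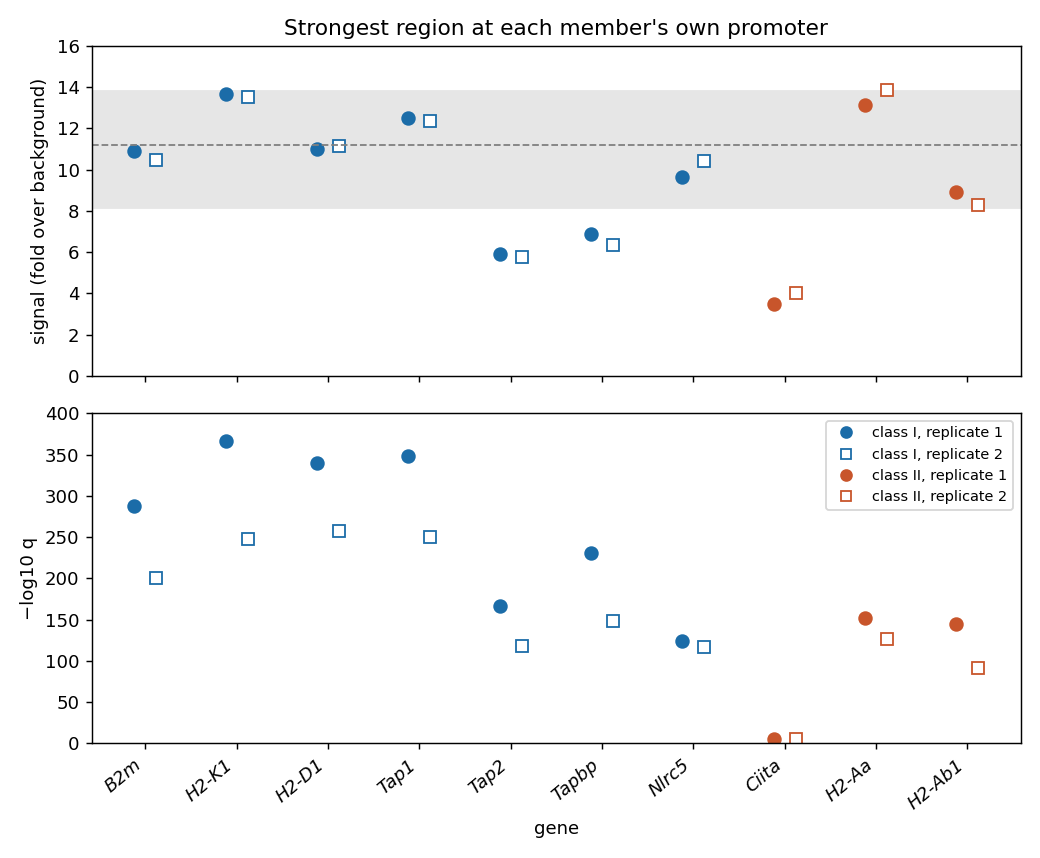
Signal (top, fold over background) and −log10 q (bottom) of the strongest own promoter region of each member in replicate 1 (filled circles) and replicate 2 (open squares), class I in blue and class II in orange. The dashed line is the median of the 13737 genes with a promoter region in both libraries, 11.21, and the grey band their middle 50%. H2-K1 and H2-Aa are the highest of their classes and Ciita the lowest of all members.

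The promoter sequences are shown for the elements that B2m, the class I heavy chain genes and the class II chain genes share. The 5 stretches printed here are the 200 bases just upstream of a transcript start, on the gene's strand. Those of B2m, H2-K1, H2-D1 and H2-Aa are from RefSeq (GRCm38.p6) and that of H2-Ab1 is from the mm10 genome at its GENCODE start. They lie at chr2:122147487-122147686 (plus strand), chr17:34000348-34000547 (minus), chr17:35262894-35263093 (plus), chr17:34287824-34288023 (minus) and chr17:34263009-34263208 (plus), in the order printed. Capitals mark TGACG, part of the X2 element that CREB proteins bind (called site alpha in class I promoters), and ATTGG. The latter is the reverse complement of the Y box CCAAT bound by NF-Y. In H2-Ab1 the capitals mark TGAC, which is not followed by G there, and ATTGG.
B2m: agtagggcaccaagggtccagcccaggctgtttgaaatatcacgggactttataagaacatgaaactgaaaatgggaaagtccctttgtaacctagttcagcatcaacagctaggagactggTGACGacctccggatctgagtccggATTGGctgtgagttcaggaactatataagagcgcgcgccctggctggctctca
H2-K1: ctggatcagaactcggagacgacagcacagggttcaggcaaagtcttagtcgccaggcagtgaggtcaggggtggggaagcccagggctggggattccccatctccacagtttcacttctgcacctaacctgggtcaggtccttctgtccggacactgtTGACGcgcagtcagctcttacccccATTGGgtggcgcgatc
H2-D1: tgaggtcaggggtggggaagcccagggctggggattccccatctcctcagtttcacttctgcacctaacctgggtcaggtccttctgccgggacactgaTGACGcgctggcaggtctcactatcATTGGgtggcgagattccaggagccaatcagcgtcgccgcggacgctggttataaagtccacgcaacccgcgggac
H2-Aa: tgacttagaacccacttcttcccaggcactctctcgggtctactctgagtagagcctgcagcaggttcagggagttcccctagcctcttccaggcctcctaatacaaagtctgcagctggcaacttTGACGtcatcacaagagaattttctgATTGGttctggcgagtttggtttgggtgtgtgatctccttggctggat
H2-Ab1: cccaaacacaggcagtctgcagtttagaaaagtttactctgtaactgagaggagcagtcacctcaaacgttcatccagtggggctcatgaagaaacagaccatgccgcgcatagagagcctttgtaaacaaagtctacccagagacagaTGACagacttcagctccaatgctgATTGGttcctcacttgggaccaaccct

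The spacing of these elements was the same or nearly the same in genes of both classes. TGACG and ATTGG began 25 bases apart in B2m, H2-K1 and H2-D1 and 26 apart in H2-Aa, while TGAC and ATTGG began 24 apart in H2-Ab1. Counted from the start, TGACG began at -78 in B2m, -41 in H2-K1, -101 in H2-D1 and -74 in H2-Aa, and TGAC at -51 in H2-Ab1. H2-K1 has another RefSeq start, from which TGACG began at -55, so these positions depend on the start chosen. Of all 32851 RefSeq promoter windows of 300 bases, 54 (0.164%) held TGACG followed by ATTGG at 25 or 26 bases on either strand. Of the 7 windows that the RefSeq table gave for 6 members, 5 did, from 4 genes. The exceptions were Tap1 and Tapbp. Tap2, Nlrc5, Ciita and H2-Ab1 were not in the table. This spacing was looked for after the sequences had been seen, so its presence in the members is a description.

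H2-K1 and H2-D1 are copies of one ancestral gene, and their promoters remain alike. Aligned at TGACG without gaps, they were identical at 176 of 240 bases (73.3%). H2-K1 and B2m matched at 33.1% of 263 bases, and H2-K1 and H2-Aa at 25.5% of 267. H2-D1 matched B2m at 31.8% and H2-Aa at 26.7%, and B2m matched H2-Aa at 29.7%. TGACG itself is identical in each pair through the alignment, and no value for unrelated promoters is given here. The class I heavy chain genes also shared a kappa B match, GGGATTCCC, at -110 in H2-K1 and at -170 in H2-D1. Counted from the other RefSeq start of H2-K1 it lay at -124. In B2m a kappa B match on the other strand, GGAAAGTCC, lay at -126, next to an interferon-stimulated response element (ISRE) match, GAAACTGAA, at -139. H2-Aa of class II also held a kappa B match, GGAGTTCCC, at -130. The kappa B letters searched were GGNNTTNCC, found in 16% of promoter windows, and the ISRE letters were GAAANNGAA, found in 8.56%, on both strands. Neighbouring class I genes are similar enough that reads can fit more than 1 of them, and how such reads were treated is not given in the sources used here.

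B2m encodes beta-2 microglobulin, the light chain of every classical class I molecule. Its own promoter region, chr2:122147291-122149447, had a signal of 10.9 in replicate 1 and 10.5 in replicate 2, a mean of 10.7 ± 0.309 (SD, n = 2). The −log10 q was 288 and 201. The summit was 89 bp upstream of the single annotated start, inside an intron of the overlapping gene Patl2. The region was 2157 bp wide, against a median of 1274 bp for shared promoter regions. In signal B2m stood at the 45.5th percentile of all accessible promoters but in −log10 q at the 74.2nd.

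The heavy chain genes H2-K1 and H2-D1 encode the K and D molecules that present peptides to CD8 T cells. H2-K1, at chr17:33998776-34000801, had a signal of 13.7 and 13.5, a mean of 13.6 ± 0.123 (SD, n = 2), with a −log10 q of 366 and 248. That was the highest mean among the members, at the 72.9th percentile of the 13737 genes with a promoter region in both libraries. Its summit lay 15 bp past the 5′ end, and 6 of its 8 annotated starts had this summit within 1000 bp. H2-D1, at chr17:35262483-35264146, had 10.995 and 11.2, a mean of 11.08 ± 0.118 (SD, n = 2), with a −log10 q of 340 and 257. Its summit fell 285 bp inside the GENCODE gene but 79 bp upstream of the RefSeq start. In both libraries H2-K1 exceeded H2-D1, and the gap was larger than the spread between libraries.

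Tap1 and Tap2 encode the subunits of the peptide transporter, and their promoters differed. The Tap1 region, chr17:34186642-34188348, had a signal of 12.5 and 12.3, a mean of 12.43 ± 0.116 (SD, n = 2), with a −log10 q of 348 and 250. It also lies at a start of Psmb9, an immunoproteasome subunit gene that runs the other way, so its signal cannot be assigned to Tap1 alone. Tap2, at chr17:34203259-34204669, had 5.91 and 5.74, a mean of 5.824 ± 0.121 (SD, n = 2), with a −log10 q of 167 and 118. Tap2 was thus lower than Tap1 in both libraries and stood at the 11.8th percentile, against the 61.3rd for Tap1. A second Tap2 region, 913 bp past its most downstream start, had 4.93 and 4.67. Between the 2 genes the promoter of Psmb8, another immunoproteasome subunit gene, had 5.32 and 5.67. These 3 regions from Psmb8 to Tap2 lie in the windows of both genes.

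Tapbp encodes tapasin, which holds empty class I molecules next to the transporter. Its strongest own region, chr17:33915700-33916214, had a signal of 6.89 and 6.34, a mean of 6.62 ± 0.388 (SD, n = 2), with a −log10 q of 230 and 148. This region is 64 bp past the 5′ end and also lies at a start of the neighbouring gene Zbtb22. A second own region, chr17:33918798-33921191, had 5.73 in each library and was 2394 bp wide. It holds the whole RefSeq promoter window of Tapbp, and its summit lies 955 bp past the nearest annotated start. Promoters of Daxx (11.7 and 12.2) and Rgl2 (7.41 and 6.51) flank the gene. Tapbp was the only member with no distal region in both libraries.

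Nlrc5 encodes the class I transactivator, which is itself inducible by interferon gamma. Its promoter region, chr8:94433415-94434659, had a signal of 9.63 and 10.4, a mean of 10.02 ± 0.564 (SD, n = 2), with a −log10 q of 124 and 117. The summit was 36 bp upstream of the first protein-coding start. No shared summit lay within 1000 bp of the other 3 annotated starts, of which the nearest to a summit was 7.863 kb away. An ISRE match was found within 50 bases of the Nlrc5 summit, as it was at B2m, against 1.96% of all shared promoter summits.

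The class II chain genes had promoter regions in both libraries. H2-Aa, which encodes the alpha chain of the A molecule, had a signal of 13.1 and 13.9 at chr17:34287629-34288311, a mean of 13.5 ± 0.546 (SD, n = 2). It differed from the 13.6 of H2-K1 by less than the spread between libraries. It ranked at the 71.8th percentile of genes with a promoter region in both libraries. Its −log10 q was 152 and 126. H2-K1 reached 366 and 248 in a region 2026 bp wide, and the H2-Aa region was 683 bp wide. H2-Ab1, which encodes the partner beta chain, had 8.89 and 8.30 at chr17:34262930-34263665, a mean of 8.597 ± 0.417 (SD, n = 2), with a −log10 q of 144 and 91.6. Its summit lay 2 bp from a protein-coding start that is 5.52 kb inside the annotated gene. H2-Aa exceeded H2-Ab1 in both libraries.

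Ciita encodes the class II transactivator, the switch on which class II transcription depends. In the mouse it has alternative promoters: the upstream ones serve dendritic cells and B cells, and the most downstream one responds to interferon gamma. One weak region was found at the most downstream starts, chr16:10489483-10490041, with a signal of 3.48 and 4.03, a mean of 3.754 ± 0.393 (SD, n = 2). Its −log10 q was 5.18 and 5.86, and it stood at the 3.25th percentile of promoter signals and the 1.31st of −log10 q. The summit was within 65 bp of the 3 starts that lie 9.687 to 9.724 kb inside the gene. The nearest shared summit to the start at 8.22 kb was this same one, 1.532 kb away. No region was called within 1000 bp of that start or of the 2 starts at the gene's 5′ end, in either library. It was lost when only the 50000 strongest peaks of each library were kept.

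**Figure D2:**
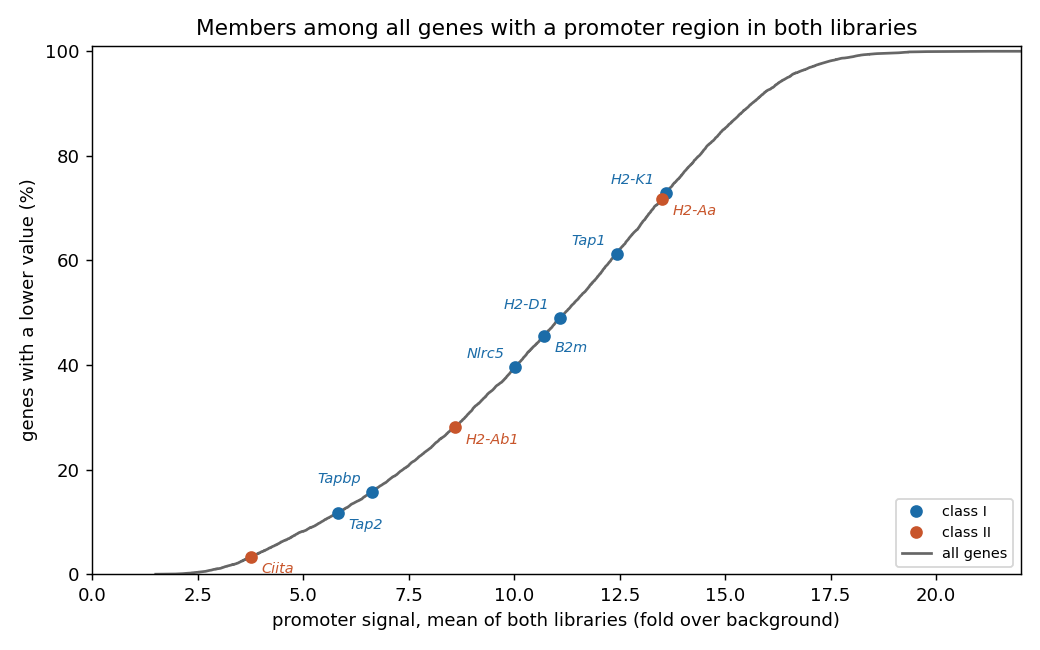
Percentage of genes with a lower promoter signal (y axis) against mean promoter signal of both libraries (x axis, fold over background) for all 13737 genes with a promoter region in both libraries (grey line), with class I members in blue and class II members in orange. Members are spread along the curve from Ciita at 3.754 to H2-K1 at 13.6, and the classes are interleaved.

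Own promoter regions of class I were on the whole wider and of higher −log10 q than those of class II. Own promoter regions had a median width of 1664 bp over the 9 of class I and 683 bp over the 3 of class II. The narrowest was the Tapbp region at 515 bp, so the widths overlap too. The median of −log10 q over class I regions was 230 and 148, and over class II regions it was 144 and 91.6. GC content within 50 bases of own promoter summits had a median of 55.4% in class I and 50.5% in class II, against 65.3% at all shared promoter regions. The part of width and GC content in the class values was not tested.

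Of the 10 members, 9 had a distal region in both libraries, against 63.3% of all protein-coding genes. With all peaks the density was close in the classes. Class I had 19 shared distal regions, or 0.705 per 10 kb, and class II had 9, or 0.76 per 10 kb. This closeness depends on weaker peaks. With the 50000 strongest peaks of each library, 13 were left in class I and 3 in class II. The mean signal of both libraries had a median of 7.357 (2.946 to 14.03) in class I and 4.782 (2.89 to 6.919) in class II. These medians are over regions and rest largely on a few genes. Nlrc5 gave 9 of the 19 in class I, and H2-Ab1 gave 5 and Ciita 3 of the 9 in class II. All 52834 shared distal regions had a median of 6.562.

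**Figure D3:**
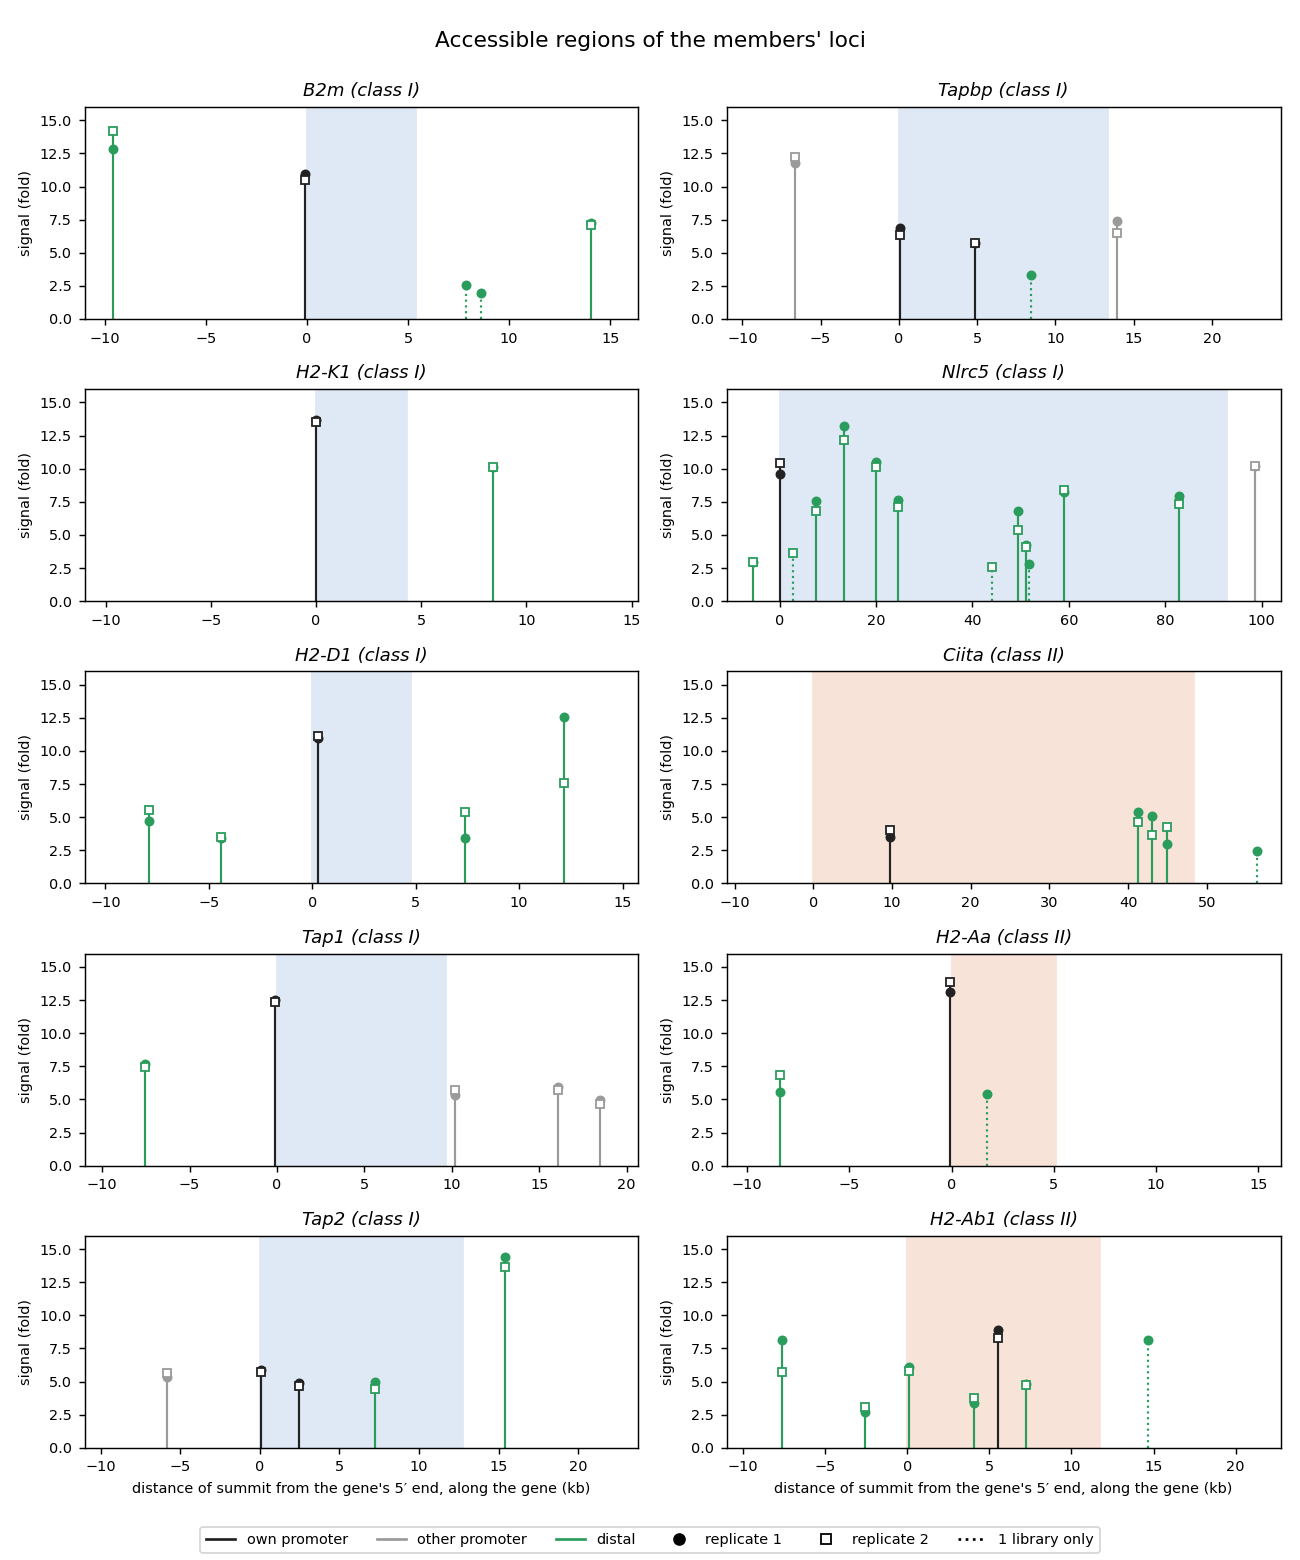
Signal of each accessible region (y axis, fold) by distance of its summit from the gene's 5′ end along the gene (x axis, kb) for the 10 members, with the gene body shaded, class I in blue and class II in orange. Circles are replicate 1, squares replicate 2, dotted lines regions of 1 library; the tallest distal regions, in green, lie near Tap2, B2m and in Nlrc5.

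The strongest distal region lay beyond the 3′ end of Tap2, at chr17:34218261-34219360, 13.8 kb from the nearest Tap2 start. Its signal was 14.4 in replicate 1 and 13.7 in replicate 2, with a −log10 q of 165 and 117, and it ranked at the 94.4th percentile of shared distal regions. It was more than double the promoter signal of Tap2 itself in both libraries. The sequence within 50 bases of its summit, chr17:34218877-34218977 (plus strand), is shown because it holds an ISRE match, which the capitals mark.
Tap2 distal region: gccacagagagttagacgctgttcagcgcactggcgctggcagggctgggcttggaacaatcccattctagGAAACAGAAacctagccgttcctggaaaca
An ISRE match was found at 4.56% of all shared distal summits, in windows of the same length and on both strands. Among the 28 shared distal regions of the members, 1 held a match, and it was this region.

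B2m had 2 shared distal regions. The stronger, chr2:122137624-122138620, was 9.62 kb upstream in an intron of Patl2 and had a signal of 12.9 and 14.2, above the B2m promoter in both libraries. The other, 14.1 kb downstream in an intron of Trim69, had 7.27 and 7.10. H2-K1 had 1, 5.53 kb from its nearest start, with 10.1 in each library. Tap1 had 1, 7.56 kb upstream, with 7.69 and 7.46. Tap2 had a second, in its own intron, with 5.00 and 4.41.

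H2-D1 had 4 shared distal regions in a 24.77 kb window, against a median of 0 and a 90th percentile of 2 for genes in the same decile of gene length. The upstream pair had signals of 4.74 and 5.55 at 7.89 kb, and 3.42 and 3.53 at 4.43 kb. The downstream pair varied most between libraries. The region at 8.9 kb past the nearest start had 12.6 in replicate 1 and 7.57 in replicate 2, a ratio of 1.66. That at 4.11 kb had 3.45 and 5.40, a ratio of 0.639. Across all shared distal regions, 90% of ratios lay between 0.78 and 1.365, so both of these fell outside that range, in opposite directions. Distal regions of H2-Ab1 (1.415) and Ciita (1.381 and 0.6947) fell outside it too.

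Nlrc5 is the longest member, at 92.92 kb, and had 9 shared distal regions, against a median of 3 and a 90th percentile of 8 for genes of like length. All but 1 were in its own introns. The highest was 13.3 kb inside the gene, at chr8:94447151-94448096, with a signal of 13.2 and 12.2 and a −log10 q of 258 and 169. It exceeded the Nlrc5 promoter in both libraries. The next, at 19.9 kb, had 10.5 and 10.1. The others had mean signals of 2.946 to 8.318, the lowest being upstream of the gene. The promoter of Cpne2, past the 3′ end, had 10.2 in each library.

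Ciita had 3 shared distal regions, all 41.3 to 45 kb from its 5′ end in introns of Dexi, which overlaps the 3′ part of the gene in the annotation, so they may not belong to Ciita. Their signals were 5.36 and 4.67, 5.07 and 3.67, and 2.97 and 4.28, so their order changed between libraries. H2-Ab1 had 5, against a median of 1 and a 90th percentile of 3 for genes of like length. One of them, with 6.12 and 5.81, lies 112 bp from the annotated 5′ end of H2-Ab1, where no protein-coding transcript starts. The highest, with 8.11 and 5.73, is in an intron of H2-Ob. The lowest, 2.58 kb upstream of the annotated 5′ end, had 2.69 and 3.10. Just outside the promoter limit were H2-Ab1 regions at 1466 and 1675 bp from a start, with mean signals of 3.575 and 4.782.

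H2-Aa had 1 shared distal region, chr17:34296000-34296849, 8.41 kb upstream, between H2-Aa and H2-Eb1. Its signal was 5.55 and 6.86 and its −log10 q 36.4 and 40.2, at the 46.1st percentile of shared distal regions. It is shown, as 201 bases around the summit at chr17:34296130-34296330 on the minus strand, because it holds the same pair of elements as the promoters. Here they run on the opposite strand, so capitals mark CCAAT and CGTCA, the reverse complements of ATTGG and TGACG, with starts 25 bases apart.
H2-Aa distal region: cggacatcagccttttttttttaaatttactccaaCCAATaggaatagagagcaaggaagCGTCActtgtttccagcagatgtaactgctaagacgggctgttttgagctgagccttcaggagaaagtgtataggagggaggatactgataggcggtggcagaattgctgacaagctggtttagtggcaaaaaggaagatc
Of 52834 shared distal regions, 6 (0.0114%) held this spacing in 201 bases around the summit, and this was the only one of those 6 on chromosome 17.

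At shared promoter regions the same search found 26 of 14013 (0.186%). B2m, H2-K1, H2-D1 and H2-Aa were 4 of the 26, but their sequences had been seen before the spacing was chosen. No other gene of the class I and class II pathway lists had one. The other 22 included regions at Xbp1, Nrarp, E2f1, Trim26 and Rheb, named after their values were seen. Allowing TGAC in place of TGACG and 24 to 26 bases raised the number to 66 (0.471%). This looser pattern takes in the letters and spacing printed above for H2-Ab1, so the addition of H2-Ab1 was built into it. At shared distal regions the looser search found 137 (0.259%), against 6 with TGACG and 25 or 26 bases, so the rarity of the distal match depends on the stricter letters. The single elements were more widespread. CCAAT was in 6 of the 12 own promoter windows reaching 50 bases to each side of the summit, 5 of 9 in class I and 1 of 3 in class II, against 19.6% of all shared promoter regions. TGACG was in 4 of 12, against 13.6%. These counts depend on where the windows end. The ATTGG of H2-Aa and the TGACG of H2-K1 printed above lie just outside them. The X1 core searched as CCNAGNNAC was in 1 of 12, at Tap1, against 6.26%. Outside these windows, X1 core matches also lay in the class II chain promoters. In H2-Ab1, CCCAGAGAC at -63 precedes TGAC. In H2-Aa, CCCAGGCAC at -180 is far upstream of TGACG at -74 and not next to it. Of all RefSeq promoter windows of 300 bases, 17.3% held a match. The AP-1 letters TGANTCA, added after seeing earlier results, were in 3 of the 28 distal windows, against 22.2% of all shared distal regions.

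Nearly all other genes of the pathways had promoter regions too. Of 17 other class I pathway genes, 16 (94.1%) had one in both libraries, against 62.9% of all protein-coding genes. The strongest were those of H2-Q4 (16.6 and 16.1) and H2-T22 (16.2 and 14.0), class I genes of the Q and T regions, and of Canx (15.2 and 14.0), which encodes the chaperone calnexin. Psmb10, an immunoproteasome subunit gene, had none in either library. The 16 are not all further regions. The Psmb9 region is the Tap1 promoter region, and the Psmb8 region lies in the Tap1 and Tap2 windows, both described above. Of 12 other class II pathway genes matched, all had one, led by Lgmn (19.3 and 17.4), a lysosomal protease gene, and by H2-DMb2 (13.5 and 14.6) and H2-DMa (13.7 and 13.5), which encode the DM peptide editor. Ifi30 was not matched. The median promoter signal was 10.88 in the class I list and 8.907 in the class II list. It was 11.21 over all genes with a promoter region in both libraries. All 14 regulator genes had one, led by Nfyc (15.3 and 14.4), Ifngr1 (15.3 and 14.3) and Rfxank (14.9 and 14.0).

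Markers of other cells are given because B cells and myeloid cells use the class II promoters. The share of all protein-coding genes with a promoter region in both libraries, 62.9%, is the background here. Of 9 T-cell markers, 8 (88.9%) had one, with mean signals of 2.533 to 10.25. The exception was Cd8a. Of 7 B-cell markers 3 (42.9%) did, with 8.837 to 14.49: Pax5, Ebf1 and Cr2. Ms4a1 and Cd79a were among those with none in either library, and Cd79b had one in a single library. Of 8 myeloid and dendritic cell markers 4 (50%) did, with 8.668 to 12.32: Cd14, Flt3, Zbtb46 and Spi1. Lyz2, Csf1r, Itgam and Itgax had none in either library. The part of other cells in the class II signal was not tested, and a peak in bulk material does not tell a few open cells from partial opening in many.

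The libraries gave near values at most member regions. Signal in replicate 1 divided by that in replicate 2 had a median of 1.019 over the 44 shared regions, of which 27 were above 1, and 1.04 over all 66847, of which 62.7% were. Over the 12 own promoter regions the ratio ranged from 0.8621 (Ciita) to 1.087 (Tapbp). Of the 9 regions in a single library, signals ranged from 1.935 to 8.109, and 6 belonged to class I and 3 to class II. In class I, B2m had 2 downstream in replicate 1, with 2.57 and 1.93. Tapbp had 1 in its intron in replicate 1, with 3.32. Nlrc5 had 1 in replicate 1, with 2.80, and 2 in replicate 2, with 3.62 and 2.55, all in its introns. In class II, all 3 were in replicate 1. The highest, at chr17:34272075-34272430 and 9.1 kb past a start of H2-Ab1, had a signal of 8.11 and a −log10 q of 28.3. H2-Aa had 1 in its intron, 1.72 kb past a start, with a signal of 5.41 and a −log10 q of 25.7. Ciita had 1 in an intron of Dexi, with 2.48.

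**Figure D4:**
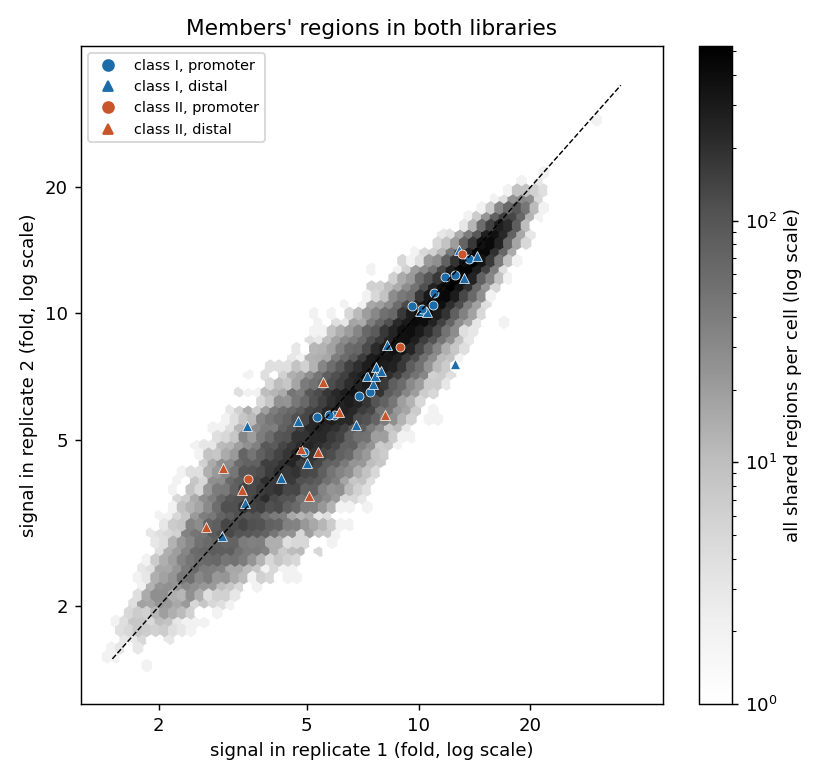
Signal in replicate 2 (y axis) against replicate 1 (x axis), both as fold on log scales, for all 66847 shared regions (grey, darker where more lie) and the 44 shared regions of the members, class I in blue and class II in orange, promoters as circles and distal regions as triangles. Promoter points hug the dashed line of equality, and the H2-D1 distal region with 12.6 and 7.57 lies farthest below it.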

How the data were processed

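ATAC-seq peaks of 2 libraries in 1 group were analysed. Each deposited file held 1 library's peaks in narrowPeak format on mm10, per the labels. Aligner, caller, threshold and the handling of reads that fit several places are not given in the sources used here, nor is a transposase shift, which would be small beside the windows used. The authors' score column is 10 times the −log10 q, limited at its maximum, in 99.9987% of peaks. The deposited signal column is a ratio, read as fold over background from its values. The authors' −log10 p column was not needed, and their −log10 q was used unchanged; no peak of replicate 1 was below 1.018 and none of replicate 2 below 1.005. No scaling between libraries is stated, and depth is unknown.

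Peaks overlapping by at least 1 bp were merged across libraries, and a merged region took its strongest summit. Genes and 54361 starts of protein-coding transcripts were from GENCODE mouse release 21, which has mm10 coordinates. Signals are given per library in the order replicate 1, replicate 2. Percentiles are among genes or regions present in both libraries. Genes of like length are those in the same length decile. Sequences were read with pysam 0.24.0 and samtools 1.23.1 from GRCm38, and the 7 RefSeq promoter windows of members were identical to it. Consensus letters were counted on both strands: 6 were listed with the lists, and 4 plus the spacing of TGACG and ATTGG were added later.

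The rule named all 10 members with their regions and, of the other pathway and regulator lists the 3 strongest promoters and up to 4 genes with none; some weaker regions are given as ranges. The members and lists were chosen with earlier results of these data known. The alternatives were a stricter q, the 50000 strongest peaks, other promoter distances, the 5′ end alone, other flanks, stricter overlap, any overlap with the window, and each library alone. A few listed items are not reported here. The code was tested on simulated loci. Analyses used Python 3.11.15 with numpy 2.4.6, and figures matplotlib 3.10.9.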

Additional observations from a re-analysis of the deposited data

How the results depend on the processing

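The count of own promoters, the count of distal regions and the median promoter signal in each class, 6 results, were recomputed under 11 alternatives. Of the 66 values, 62 stayed within the limits used. For a median the limit was the SD of its values in the libraries, 0.309 in class I and 0.417 in class II. Some of the 62 could not have moved. The median of each library alone lies within that SD by construction, and flank settings cannot change promoter counts or signals. For a count the limit was 1.5 times, so 2 class II promoters against 3 also stayed within it. Counts within that limit still shifted: class I distal regions ranged from 13 (50000 strongest peaks) to 26 (flank of 20 kb) against 19, and those of class II from 6 (no flank) to 10 (5′ end alone) against 9 with both libraries. The class I promoters kept all 7 members and the class I median of 10.7 in each alternative that used both libraries. With no flank, class I distal regions numbered 9 against 19. With the 50000 strongest peaks of each library, class II distal regions numbered 3 against 9, and the class II median promoter signal was 11.05 against 8.597, since Ciita was lost. With the 5′ end of each gene alone it was 9.732, since Ciita was lost there too and H2-Ab1 was represented by another region. In both these settings the class II promoters numbered 2. Flank settings bear on distal counts alone.

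Leaving out 1 library gave 7 class I promoters and 3 class II promoters each time, 21 to 23 class I distal regions, 9 to 12 class II distal regions, a class I median of 10.48 to 10.92 and a class II median of 8.302 to 8.892. No paired analysis was possible because there is 1 group. Limits are the 2 libraries, their shared donor record, the unknown depth, and the similarity of class I genes to each other. A region not called at this depth may still be open.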
